A study of Mus musculus with 9 samples.

Results

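The genes of glycolysis and of the response to low oxygen were followed in whole extrahepatic bile ducts (EHBDs) of mice 24 hours after bile duct ligation (BDL). The members were taken by gene symbol. They are 33 of the 55822 genes in the count table, of which 23 code for glycolytic enzymes, lactate enzymes and their transporters and 10 belong to the pathway of the hypoxia-inducible factors (HIFs). Each of the 33 had at least 10 counts summed over the libraries and entered the test with 21299 genes in all. The mice were adult wild-type C57BL/6J animals of both sexes with no transgene. The 5 mice of the BDL group (2 male, 3 female) had the distal duct tied close to the duodenum, and the 4 sham mice (2 male, 2 female) had a laparotomy with no tie. Each mouse gave 1 bulk RNA-Seq library, so n is the number of mice, and the duct was sequenced with all the cells attached to it.

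Glycolysis splits glucose into pyruvate in a chain of enzymatic steps. The steps as far as triosephosphate isomerase consume ATP, and the steps from glyceraldehyde-3-phosphate dehydrogenase onward give ATP and NADH. Lactate dehydrogenase turns pyruvate into lactate, which monocarboxylate transporters carry over the cell membrane, while the pyruvate dehydrogenase kinases hold pyruvate back from the mitochondria. Many steps have several isozymes, each made in other tissues: muscle, brain and liver forms are known for phosphofructokinase, and the B subunit of lactate dehydrogenase prevails in heart where the A subunit prevails in skeletal muscle. HIF is a pair of an oxygen-sensitive alpha subunit (Hif1a, or Epas1, which codes for HIF-2 alpha) and a stable partner. Prolyl hydroxylases such as Egln1 and Egln3 mark the alpha subunit for breakdown when oxygen is present, so that the protein can change with no change of its mRNA, and the HIF dimer is known to raise most of the glycolytic genes studied here.

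HIF dimers bind DNA at the core letters ACGTG or GCGTG, and these were searched on both strands of the RefSeq window around each start site (250 bases before to 50 after it). In all, 14380 of 32851 windows of that length (43.8%) held at least 1 match. A window was found for 31 of the 33 members, all but Epas1 and Ndrg1, and 36 of the 44 windows of these members (81.8%) held a match. A match stood in 17 of 21 windows of members higher after BDL (81%), in 8 of 10 of members lower (80%) and in 11 of 13 of members with no call (84.6%), so members that rose and members that fell held the letters at like shares. The 6 windows below belong to the members of largest change that hold a match, 4 of which rose and 2 of which fell. Capitals mark each match, read on either strand, so that CACGT and CACGC are the same letters on the opposite strand. Each window was located in GRCm39 by an exact match at 1 place, and is written 5′ to 3′ on the strand of its gene.
Slc16a3: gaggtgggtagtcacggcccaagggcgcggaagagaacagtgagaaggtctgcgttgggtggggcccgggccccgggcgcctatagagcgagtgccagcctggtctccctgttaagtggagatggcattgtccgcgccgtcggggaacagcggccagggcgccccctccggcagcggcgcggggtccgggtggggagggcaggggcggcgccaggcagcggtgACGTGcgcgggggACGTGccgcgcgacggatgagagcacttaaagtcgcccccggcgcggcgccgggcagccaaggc
Ldhb: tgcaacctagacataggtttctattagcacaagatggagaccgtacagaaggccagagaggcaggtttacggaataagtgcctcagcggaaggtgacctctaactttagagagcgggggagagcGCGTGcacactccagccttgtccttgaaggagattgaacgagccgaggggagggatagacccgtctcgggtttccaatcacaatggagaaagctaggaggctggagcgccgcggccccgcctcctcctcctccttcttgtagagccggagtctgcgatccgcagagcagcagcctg
Pgk1: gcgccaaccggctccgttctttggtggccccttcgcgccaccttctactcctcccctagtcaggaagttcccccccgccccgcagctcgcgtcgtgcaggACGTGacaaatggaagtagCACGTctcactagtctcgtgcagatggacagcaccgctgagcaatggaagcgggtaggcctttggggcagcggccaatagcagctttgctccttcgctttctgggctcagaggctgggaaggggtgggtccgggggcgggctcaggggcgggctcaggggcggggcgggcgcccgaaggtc
Bnip3: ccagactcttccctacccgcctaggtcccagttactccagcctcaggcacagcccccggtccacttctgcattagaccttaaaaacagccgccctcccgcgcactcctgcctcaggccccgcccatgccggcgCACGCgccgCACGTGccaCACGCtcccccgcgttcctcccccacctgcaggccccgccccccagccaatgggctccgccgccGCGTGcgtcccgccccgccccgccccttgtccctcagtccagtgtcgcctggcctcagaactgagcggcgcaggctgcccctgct
Car9: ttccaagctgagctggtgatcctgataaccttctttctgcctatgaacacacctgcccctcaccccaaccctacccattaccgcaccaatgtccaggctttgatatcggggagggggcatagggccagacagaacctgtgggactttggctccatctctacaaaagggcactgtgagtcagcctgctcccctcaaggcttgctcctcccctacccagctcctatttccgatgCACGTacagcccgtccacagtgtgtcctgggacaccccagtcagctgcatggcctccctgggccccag
Gapdh: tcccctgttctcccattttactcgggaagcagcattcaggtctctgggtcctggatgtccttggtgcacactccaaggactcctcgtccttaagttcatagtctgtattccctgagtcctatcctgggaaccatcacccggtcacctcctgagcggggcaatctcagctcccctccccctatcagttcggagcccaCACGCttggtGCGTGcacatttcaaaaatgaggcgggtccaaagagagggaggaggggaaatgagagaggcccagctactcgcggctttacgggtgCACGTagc
The windows lie at chr11:120839643-120839942 (plus strand, Slc16a3), chr6:142453634-142453933 (minus, Ldhb), chrX:105230456-105230755 (plus, Pgk1), chr7:138511186-138511485 (minus, Bnip3), chr4:43506776-43507075 (plus, Car9) and chr6:125142687-125142986 (minus, Gapdh). In the GENCODE annotation the windows of Pgk1, Bnip3 and Car9 reach out of the gene, with 250, 232 and 190 of their bases upstream of it. The windows of Slc16a3, Ldhb and Gapdh lie inside the longest gene model, whose upstream start is 1047, 903 and 782 bases away. That of Slc16a3 is wholly in annotated exon, and that of Gapdh is intronic for 250 of its bases. The pair of matches in Slc16a3 begins 27 and 14 bases before its start site and that in Pgk1 begins 150 and 131 bases before. The Bnip3 window holds 5 matches, 2 of which overlap in the palindrome CACGTG. A match is a run of letters and was not tested for binding.

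The libraries held 23067967 to 29991945 counts each. The sham libraries carried a large share of pancreatic acinar RNA: the 20 acinar markers took 16.9 to 40.3% of the counts in sham and 0.0104 to 2.76% after BDL, and all 20 were lower. Biliary epithelial markers were present in every library, with 6 of 10 higher after BDL, 1 lower (Sox9) and 3 with no call, and summed levels, of which keratins made up most, of 79728 to 123760 normalized counts in sham and 210468 to 360736 after BDL. Of the other cell types, 10 of 13 neutrophil markers and 6 of 6 proliferation markers were higher, 5 of 8 endothelial, 4 of 5 adipocyte and 3 of 7 Schwann cell and neuron markers were lower, and 1 of the last was higher. In a whole duct, a lower level can mean fewer cells of a type or less RNA per cell, which cannot be told apart. Levels below, given as mean ± SD where not by library (n = 4 sham and n = 5 BDL mice), are normalized counts (counts divided by the DESeq2 size factor of the library), and values by library are in the order Sham 1, 2, 5 and 7 and BDL 3, 4, 6, 8 and 10. A member was called at an adjusted p under 0.05 in edgeR's quasi-likelihood test, adjusted by Benjamini-Hochberg over all 21299 genes.

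Most of the glycolytic pathway rose in the obstructed duct, and the HIF genes divided. Of the 33 members, 16 were higher, 8 were lower and 9 had no call. Among all genes tested, 21.4% were called higher and 19.9% lower. The glycolysis and lactate members held 13 higher, 4 lower and 6 with no call, with a median log2 fold change of 0.71 where the median of all genes was -0.03. The 10 HIF members held 3 higher, 4 lower and 3 with no call, with a median of -0.32. In 15 members every BDL library stood above every sham library, against 19.2% of all genes, and in 7 every BDL library stood below, against 19% of all genes. The called members that overlapped between the groups were Pfkl and Pfkfb3. For a difference in response between the sexes no member reached an unadjusted p under 0.05. Over all genes edgeR called 0 such differences after adjustment and 544 before it, with at most 3 mice of a sex in a group.

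**Figure D1:**
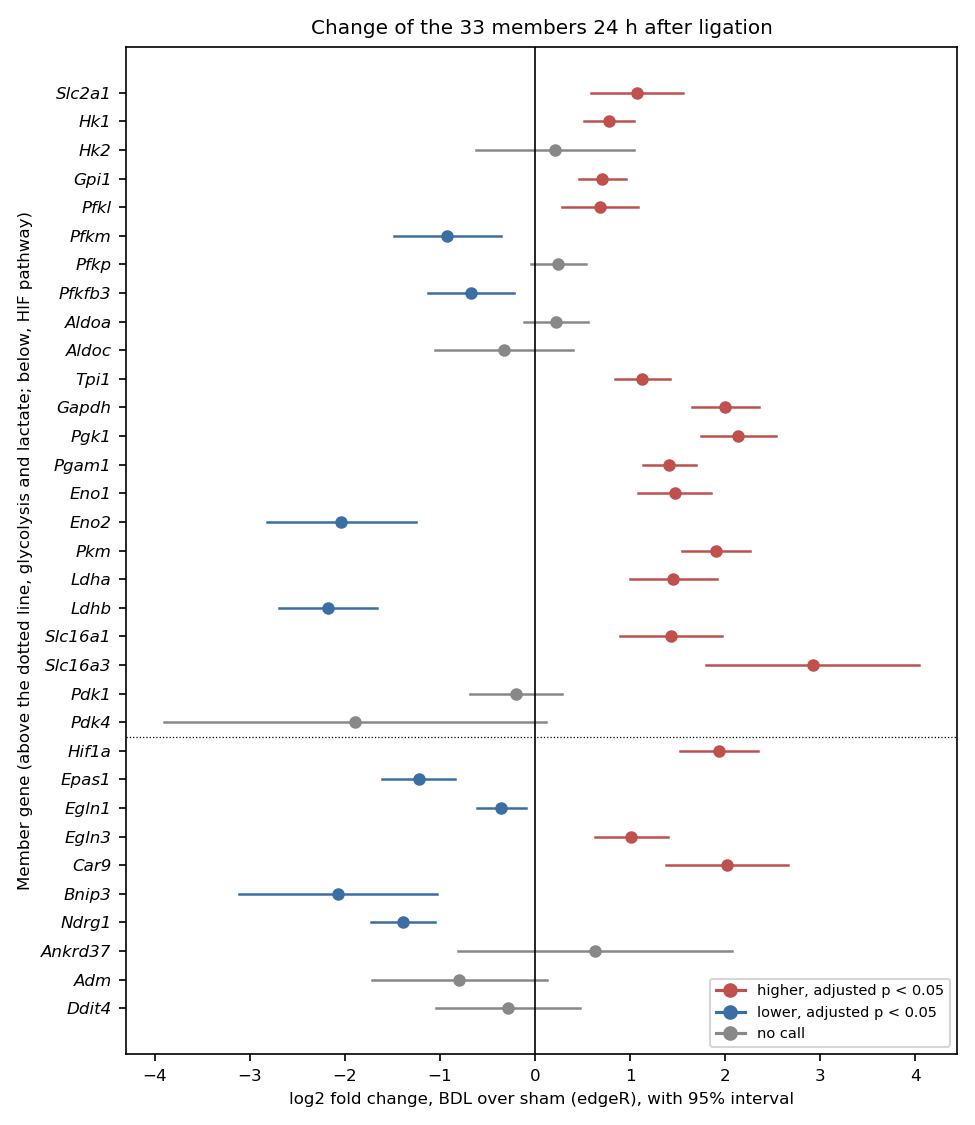
Log2 fold change (BDL over sham, x axis) with its 95% interval for each of the 33 members (y axis, in pathway order), coloured by call. The steps from Gapdh to Pkm lie between 1.41 and 2.14 apart from Eno2 at -2.04, and the HIF members fall on both sides of 0.

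Slc2a1, Hk1 and Gpi1 of glucose entry and the early steps rose by 2.10-, 1.72- and 1.63-fold, and Hk2 had no call. Slc2a1 codes for the basal glucose transporter GLUT1 and stood at 1349, 765, 996 and 1164 in the sham libraries and 2601, 2188, 2711, 1554 and 1863 in the BDL libraries. All 5 BDL libraries were above the highest sham library, with log2 fold change 1.07, SE 0.22, adjusted p = 0.00337. Hk1, the housekeeping hexokinase that traps glucose as glucose-6-phosphate, went from 1226 ± 146 in sham to 2047 ± 186 after BDL, with log2 fold change 0.78, SE 0.12, adjusted p = 0.000666. Hk2, the inducible and HIF-responsive hexokinase of muscle and fat, was a scarce transcript at 141 ± 54.0 in sham and 159 ± 60.7 after BDL and had no call (log2 fold change 0.21, SE 0.37, adjusted p = 0.68). Gpi1, which turns glucose-6-phosphate into fructose-6-phosphate, went from 3755 ± 242 in sham to 5922 ± 556 after BDL (log2 fold change 0.71, SE 0.11, adjusted p = 0.000861).

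Of the 3 isozymes of phosphofructokinase, the committed step, 1 rose, 1 fell and 1 had no call. Pfkl, the liver form, stood at 2112, 1863, 2087 and 2010 in the sham libraries and 3635, 3572, 3667, 2035 and 2844 in the BDL libraries. It was called higher (log2 fold change 0.69, SE 0.18, adjusted p = 0.0118), but BDL 8 lay within the sham range. Pfkm, the muscle form, was called lower at 206, 252, 236 and 307 in the sham libraries and 110.2, 75.3, 134, 159 and 159.6 in the BDL libraries. Its groups did not overlap (log2 fold change -0.92, SE 0.25, adjusted p = 0.0157), and without Sham 7 the adjusted p was 0.055. Pfkp, the platelet form, had no call at 1874 ± 359.7 in sham and 2111 ± 203 after BDL (log2 fold change 0.24, SE 0.13, adjusted p = 0.158). Some 42.1% of its sequence words of 31 bases are shared with Pitrm1, which overlaps it and rose by a log2 fold change of 0.89 (edgeR adjusted p = 0.000395). Pfkfb3 makes fructose-2,6-bisphosphate, the activator of phosphofructokinase, and is a known HIF target. It fell (log2 fold change -0.67, SE 0.20, adjusted p = 0.0244) from 1344 ± 450.4 in sham to 821 ± 109.6 after BDL, and BDL 6 at 995 lay above Sham 7 at 949.8. The call of Pfkfb3 was lost without Sham 2, Sham 5 or BDL 10, with adjusted p between 0.0562 and 0.11 and log2 fold changes between -0.66 and -0.40.

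Neither aldolase was called. Aldoa, the muscle-type aldolase that most tissues use, was the most abundant member per kilobase in sham and stood at 14355, 13934, 15442 and 13043 in the sham libraries and 19268, 17352, 16413, 13614 and 13658 in the BDL libraries. The groups overlapped and Aldoa had no call (log2 fold change 0.22, SE 0.15, adjusted p = 0.264, 95% interval -0.11 to 0.56). Aldoc, the brain form, also had no call, with 282 ± 109.9 in sham and 236 ± 77.4 after BDL (log2 fold change -0.32, SE 0.33, adjusted p = 0.462). Tpi1, which interconverts the 2 trioses that aldolase makes, was higher, from 5566 ± 352 in sham to 11777 ± 1364 after BDL (log2 fold change 1.13, SE 0.13, adjusted p = 0.000165).

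From Gapdh to Pkm, the major enzyme of every step rose without overlap between the groups. Gapdh, glyceraldehyde-3-phosphate dehydrogenase, stood at 8581, 8250, 8534 and 9032 in the sham libraries and 38848, 35504, 31013, 28622 and 32730 in the BDL libraries. The 4 sham libraries lay within 8250 to 9032 and the lowest BDL library was at 28622, a fold of 4.01 (log2 fold change 2.003, SE 0.16, adjusted p = 2.43e-05). Gapdh is in wide use as a reference gene. It shares 85.8% of its sequence words with other genes, and 74 near-identical copies in the count table together held 5.64% as many counts as Gapdh. Summed with its copies, Gapdh changed by a log2 fold change of 1.98 (edgeR adjusted p = 2.95e-05).

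Pgk1, phosphoglycerate kinase, which makes the first ATP of the pathway, stood at 2066, 2000, 1977 and 2218 in the sham libraries and 10327, 11113, 8150, 6312 and 8172 in the BDL libraries. This was the largest rise among the glycolytic enzymes, a fold of 4.41 (log2 fold change 2.14, SE 0.18, adjusted p = 3.32e-05), and BDL 8 was the lowest of its group. Pgam1, phosphoglycerate mutase, went from 3789 ± 249.8 in sham to 9764 ± 1114 after BDL (log2 fold change 1.41, SE 0.12, adjusted p = 3.95e-05). Eno1, the common enolase, went from 9083 ± 1171 in sham to 24383 ± 3535 after BDL (log2 fold change 1.47, SE 0.17, adjusted p = 0.000167). Pkm, pyruvate kinase of muscle and most dividing cells, stood at 5292, 5232, 5813 and 6070 in the sham libraries and 26038, 17774, 19845, 17367 and 20611 in the BDL libraries, a fold of 3.74 (log2 fold change 1.90, SE 0.16, adjusted p = 3.35e-05). The table gives 1 value for the gene, so its M1 and M2 splice forms cannot be told apart. Among the 16 members that rose, BDL 3 was the highest BDL library in 11 and BDL 8 the lowest in 12.

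Summed over isozymes and divided by transcript length, the levels of the steps show the shape of the change. These sums were chosen after the values were seen and carry no test. In sham the sum for aldolase was 9495 ± 667 normalized counts per kilobase (SD, n = 4), above Gapdh at 6056 ± 228, and after BDL aldolase stood at 10714 ± 1616 (SD, n = 5), below Gapdh at 23481 ± 2796. The ratio of the BDL mean to the sham mean was 1.64 for hexokinase, 1.58 for phosphoglucose isomerase, 1.30 for phosphofructokinase and 1.13 for aldolase. It was 2.12 for triosephosphate isomerase, 3.88 for Gapdh, 4.27 for Pgk1, 2.58 for Pgam1, 2.66 for enolase, 3.63 for Pkm and 2.37 for lactate dehydrogenase. Each of the ratios from triosephosphate isomerase downward was thus above each of the ratios from hexokinase to aldolase.

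**Figure D2:**
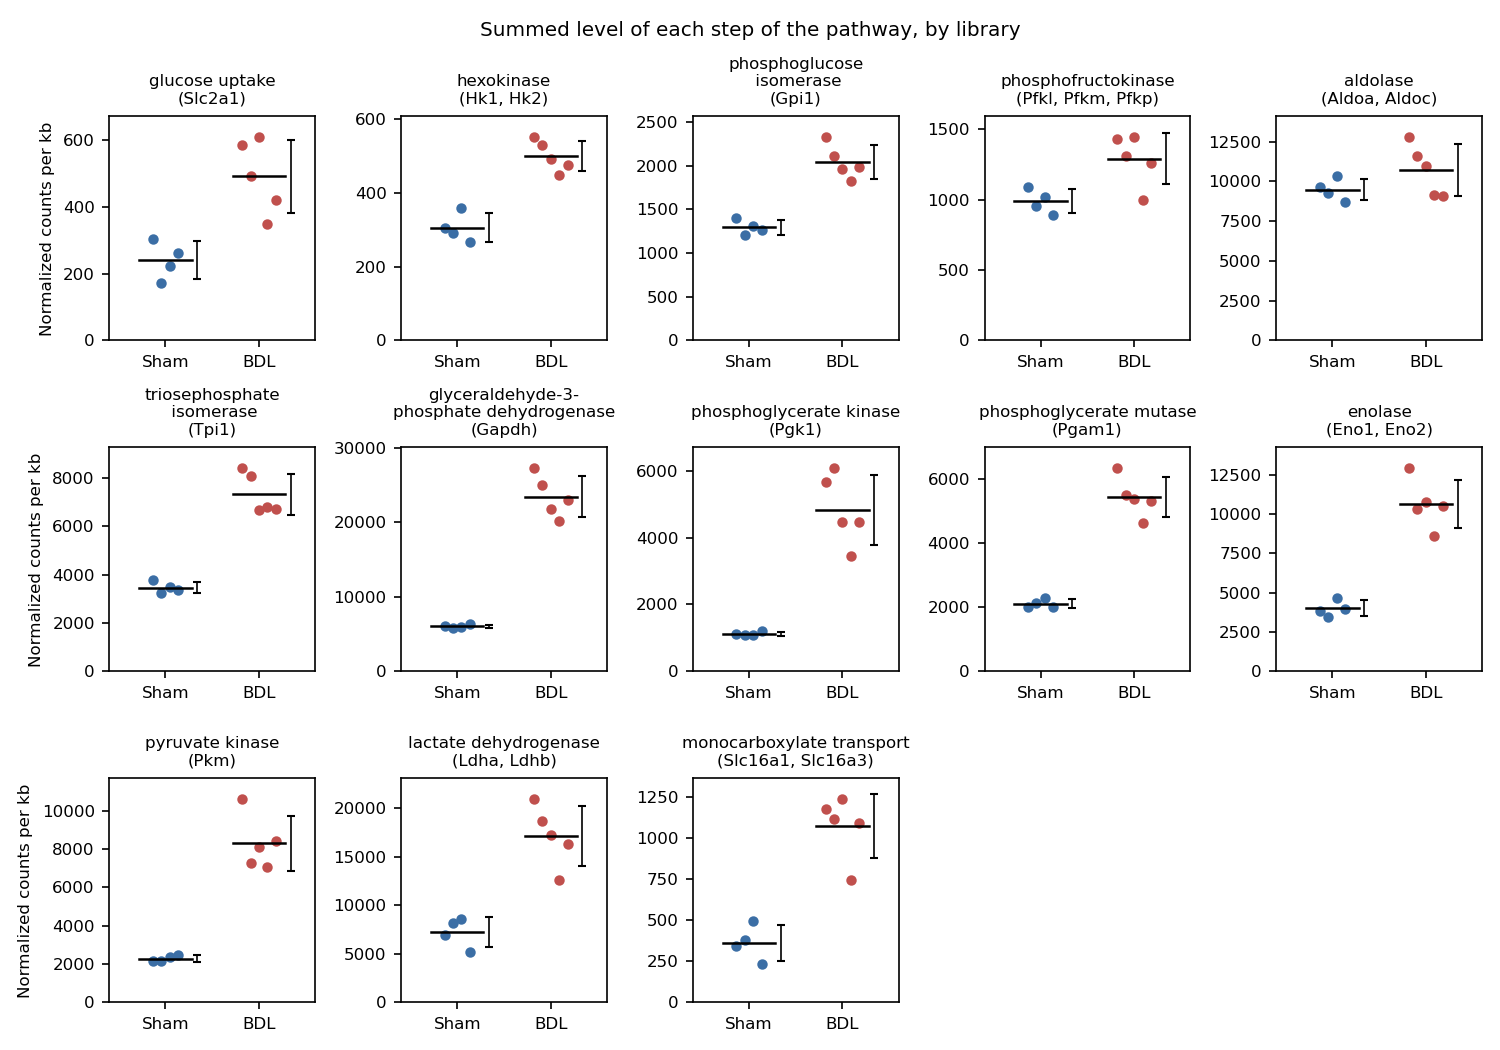
Summed level per kilobase (y axis, normalized counts per kb, from 0) of the members of each step in each library, with the group mean (line) and SD (bar). The 4 sham values of Gapdh, Pgk1 and Pkm lie close together and far below the BDL values, whereas those of aldolase and phosphofructokinase overlap the BDL values.

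Ldhb, Eno2 and Pfkm, each the least abundant form of its enzyme among the members, fell while Ldha, Eno1 and Pfkl rose. Eno3, an enolase outside the member list, stood at 48.5 ± 10.6 in sham and 80.4 ± 34.3 after BDL with no call. Ldha codes for the A subunit of lactate dehydrogenase, which favours lactate formation, and stood at 10086, 11946, 11928 and 7241 in the sham libraries and 33122, 29460, 27126, 19735 and 25570 in the BDL libraries (log2 fold change 1.46, SE 0.21, adjusted p = 0.000487). Ldhb codes for the B subunit and stood at 981, 1028, 1692 and 998 in the sham libraries and 196, 172, 303, 342 and 265 in the BDL libraries. Its change was to 0.221 of the sham level (log2 fold change -2.18, SE 0.23, adjusted p = 0.000106), and Sham 5 stood far above the other sham libraries. As a share of Ldha and Ldhb per kilobase, Ldhb was 9.17, 8.21, 12.8 and 12.5% in sham and 0.609, 0.603, 1.15, 1.77 and 1.06% after BDL. The mean share went from 10.7 ± 2.34% to 1.04 ± 0.480%, which in an exact two-sided permutation test over the 9 mice gave p = 0.00794, the smallest this design allows, and 0.0238 when adjusted over the 9 shares tested. A share of counts within a library does not depend on how libraries are scaled.

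Eno2, the neuronal enolase, stood at 124, 156, 136 and 48.4 in the sham libraries and 24.8, 18.0, 19.9, 27.0 and 41.8 in the BDL libraries, a change to 0.244 of the sham level (log2 fold change -2.04, SE 0.35, adjusted p = 0.00144). Its share of Eno1 and Eno2 went from 1.06 ± 0.483% to 0.0902 ± 0.0353%, again with every BDL library below every sham library (exact permutation p = 0.00794, adjusted 0.0238). Of the neuron markers, Elavl4 was lower, at 23.1 ± 7.14 in sham and 0.523 ± 0.809 after BDL. Tubb3 was higher, at 24.2 ± 6.25 in sham and 95.7 ± 35.3 after BDL (log2 fold change 2.05, edgeR adjusted p = 0.000874). Uchl1 had no call (log2 fold change -0.57, edgeR adjusted p = 0.153). The summed markers of Schwann cells and neurons (3 of 7 lower, 1 higher) went from a range of 871 to 1357 normalized counts in sham to 232 to 601 after BDL, and their part in the fall of Eno2 was not tested. The share of Pfkm in phosphofructokinase went from 6.43 ± 1.64% to 2.57 ± 1.01% (exact permutation p = 0.00794, adjusted 0.0238), while summed skeletal muscle markers went from 148 to 294 in sham to 28.7 to 102 after BDL (1 of 5 markers tested was lower). Most of the sham sum was Pygm, the marker that was lower. Acta1 stood at 34.2, 63.5, 30.1 and 2.31 in the sham libraries and 0.819 to 18.4 after BDL with no call, and Myh4 was at 0 in every library. The part of muscle RNA in the fall of Pfkm was not tested. The shares of Pfkl (49.9 to 58.9%, adjusted exact permutation p = 0.143), Pfkp (43.7 to 38.5%, 0.223), Hk2 (5.84 to 4.13%, 0.223) and Aldoc (1.06 to 0.803%, 0.325) overlapped between the groups.

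**Figure D3:**
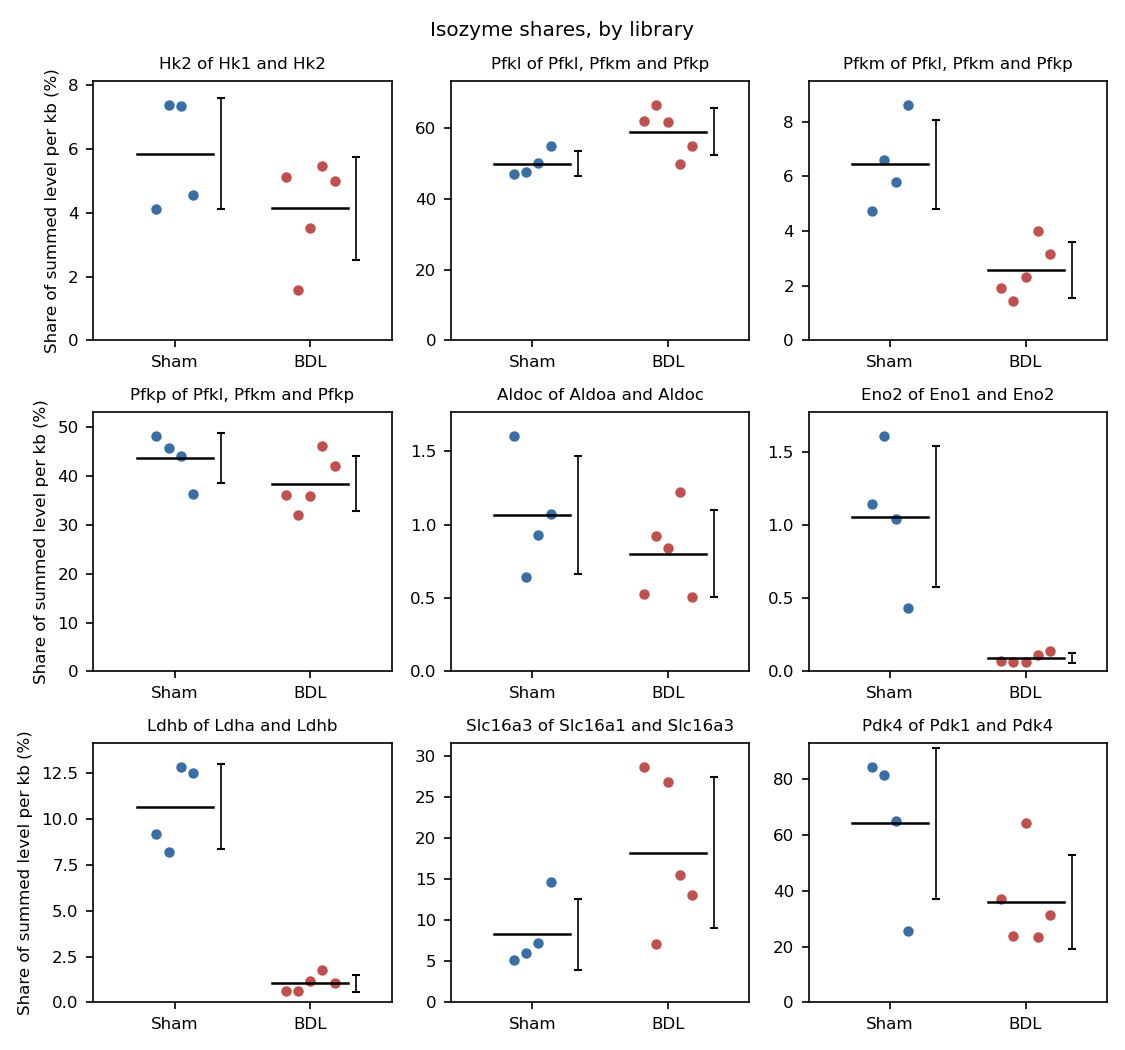
Share of each isozyme in the summed level per kilobase of its family (y axis, %, from 0) in each library, with group mean (line) and SD (bar). The shares of Ldhb, Eno2 and Pfkm are separate between sham and BDL, and the other 6 overlap.

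Both lactate transporter members rose. Slc16a1 codes for MCT1, which moves lactate in either direction, and stood at 1492, 1632, 2118 and 906 in the sham libraries and 3859, 4755, 4163, 2884 and 4355 in the BDL libraries (log2 fold change 1.43, SE 0.24, adjusted p = 0.00127). Slc16a3 codes for MCT4, the low-affinity exporter of glycolytic cells, and showed the largest fold of the 33 members at 7.57 (log2 fold change 2.92, SE 0.50, adjusted p = 0.00139). It stood at 83.9, 107, 170.4 and 159 in the sham libraries and 1587, 372, 1564, 543 and 669 in the BDL libraries. BDL 3 and BDL 6 were more than 2-fold above the other BDL libraries. The same libraries had the highest summed neutrophil markers. Leaving out Ltf, which was at 20192 normalized counts in Sham 1 and is also an epithelial gene, the 12 other neutrophil markers summed to 24878 in BDL 3 and 28424 in BDL 6, to 2950 to 7043 in the other BDL libraries and to 583 to 1754 in sham. Ly6g and Camp were at 0 in all sham libraries. BDL 3 and BDL 6 also had the highest summed erythroid markers of the BDL libraries, so standing highest was not particular to neutrophil markers. The erythroid sums were 11587.6 and 21074.5 there, 5978 to 8544 in the other BDL libraries and 6310 to 16310 in sham. The part of neutrophil RNA, or of RNA of other cell types, in the rise of Slc16a3 was not tested. The share of Slc16a3 in the pair went from 8.30 ± 4.33% to 18.3 ± 9.25% and overlapped between the groups (exact permutation p = 0.0952, adjusted 0.143). Slc16a3 shares 48.9% of its sequence words with Csnk1d, which overlaps it and changed by a log2 fold change of 0.39 (edgeR adjusted p = 0.0085).

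Neither of the pyruvate dehydrogenase kinase members was called. Pdk1, the HIF-induced form, stood at 755 ± 215 in sham and 637 ± 125 after BDL (log2 fold change -0.20, SE 0.22, adjusted p = 0.493). Pdk4, which fasting and fatty acids induce, stood at 1787, 2983, 1180 and 179.8 in the sham libraries and 319, 146, 974, 112 and 165 in the BDL libraries. The interval of its change ran from -3.90 to 0.11 on the log2 scale (adjusted p = 0.119), and the value rests on single libraries: without BDL 6 the log2 fold change was -2.82 (edgeR adjusted p = 0.00384) and without Sham 7 it was -2.57 (adjusted p = 0.037). Pdk4 made up 84.4, 81.6, 65.2 and 25.6% of Pdk1 and Pdk4 in the sham libraries and 23.5 to 64.5% after BDL. BDL 6 also held far more of the hepatocyte marker Alb (3585 normalized counts) than any other library, and the hepatocyte marker Ttr was lowest there (1840). Whether liver RNA had a part in its Pdk4 level was not tested.

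The HIF alpha subunits moved in opposite directions. Hif1a (chromosome 12) stood at 2170, 1826, 2222 and 1740 in the sham libraries and 10780, 5475, 7087, 6470 and 7138 in the BDL libraries, a fold of 3.84 (log2 fold change 1.94, SE 0.18, adjusted p = 5.73e-05), and BDL 3 was the highest. BDL 4, with the lowest neutrophil sum of the BDL libraries (2950 normalized counts without Ltf), also had the lowest Hif1a. BDL 4 was likewise the lowest BDL library in the summed monocyte and macrophage, endothelial, fibroblast, smooth muscle, adipocyte and erythroid markers. BDL 6 had the highest neutrophil sum (28424), but its Hif1a (7087) was below that of BDL 10 (7138), whose sum was 7043. The part of neutrophil RNA in the rise of Hif1a was not tested. Epas1 (chromosome 17) stood at 1257, 1474, 1697 and 1097 in the sham libraries and 521, 437, 706, 601 and 613 in the BDL libraries, a change to 0.429 of the sham level (log2 fold change -1.22, SE 0.17, adjusted p = 0.00048). Per kilobase, Hif1a was 1.39, 0.998, 1.06 and 1.28 times Epas1 in the sham libraries and 16.7, 10.1, 8.10, 8.68 and 9.39 times Epas1 after BDL, a ratio that was chosen after the values were seen and was not tested. Epas1 is known as a gene of endothelium. The summed level of 8 endothelial markers was 8039 to 13978 normalized counts in sham and 4357 to 7253 after BDL, 5 of the 8 were lower, and none was at 0 in a whole group. Within sham the order of Epas1 over the libraries (Sham 7, 1, 2 and 5, from low to high) was that of the endothelial sum. The summed fibroblast and smooth muscle markers had the same order, so it was not particular to endothelium. The part of endothelial RNA, or of RNA of other cell types, in the fall of Epas1 was not tested.

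The hydroxylases that mark HIF for breakdown also parted. Egln1 (PHD2), the main oxygen sensor, stood at 1375, 1643, 1789 and 1498 in the sham libraries and 1291, 1246, 1259, 997 and 1187 in the BDL libraries. The groups did not overlap, but the fall was small (log2 fold change -0.35, SE 0.11, adjusted p = 0.0317) and was not called without Sham 2, Sham 5 or BDL 10 (adjusted p between 0.0647 and 0.111). Egln3 (PHD3), itself a HIF target, was higher at 541, 377, 383 and 569 in the sham libraries and 848, 1113, 1001, 807 and 864 in the BDL libraries (log2 fold change 1.01, SE 0.17, adjusted p = 0.00131).

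Textbook HIF targets rose, fell and stayed uncalled. Car9, carbonic anhydrase IX, acidifies the cell surface and is known in hypoxic tumours and also in normal bile duct epithelium. It stood at 703, 602, 794 and 1337 in the sham libraries and 4968, 3632, 3051, 2874 and 2268 in the BDL libraries, a fold of 4.06 (log2 fold change 2.02, SE 0.29, adjusted p = 0.000497), and Sham 7 was the highest of the sham libraries. The biliary marker sums given above were also higher in each BDL library, although Sox9 was lower (log2 fold change -0.50, adjusted p = 0.0198), and their part in the rise of Car9 was not tested. Ndrg1, a differentiation and stress gene that hypoxia induces, fell (log2 fold change -1.39, SE 0.15, adjusted p = 0.000121) and stood at 2901, 3763, 3222 and 3269 in the sham libraries and 1596, 1163, 1299, 943 and 1040 in the BDL libraries. Bnip3, which directs mitochondria to autophagy, fell to 0.238 of the sham level (log2 fold change -2.07, SE 0.46, adjusted p = 0.0058) and stood at 4018, 7071, 5944 and 2317 in the sham libraries and 1496, 455, 1934, 988 and 602 in the BDL libraries. Its spread was wide in both groups, with Sham 2 the highest and BDL 4 the lowest library.

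The order of the sham libraries in Bnip3 (Sham 7, 1, 5 and 2) was that of the 5 adipocyte markers, which summed to 14249, 41459, 63746 and 85883 normalized counts there. The summed Schwann cell and neuron markers had the same order. After BDL the adipocyte sum was 2271 to 17691, with BDL 4 the lowest in both measures. BDL 4 was also the lowest BDL library in the summed markers of most other cell types, endothelium, fibroblasts and smooth muscle among them. Sham 7 and BDL 6 had adipocyte sums of 14249 and 14574 and Bnip3 levels of 2317 and 1934. The part of adipose RNA, or of RNA of other cell types, in the fall of Bnip3 was not tested. Ankrd37 at 27.2 ± 15.7 in sham and 41.4 ± 27.2 after BDL (log2 fold change 0.63, SE 0.64, adjusted p = 0.469), Adm, the vasodilator adrenomedullin, at 305 ± 111 in sham and 174 ± 77.1 after BDL (log2 fold change -0.80, SE 0.41, adjusted p = 0.149) and Ddit4, the mTORC1 inhibitor REDD1, at 315 ± 126.02 in sham and 229.7 ± 85.0 after BDL (log2 fold change -0.28, SE 0.34, adjusted p = 0.538) had no call. The 95% interval of Ankrd37 ran from -0.81 to 2.07, that of Adm from -1.71 to 0.12 and that of Ddit4 from -1.04 to 0.47 on the log2 scale.

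**Figure D4:**
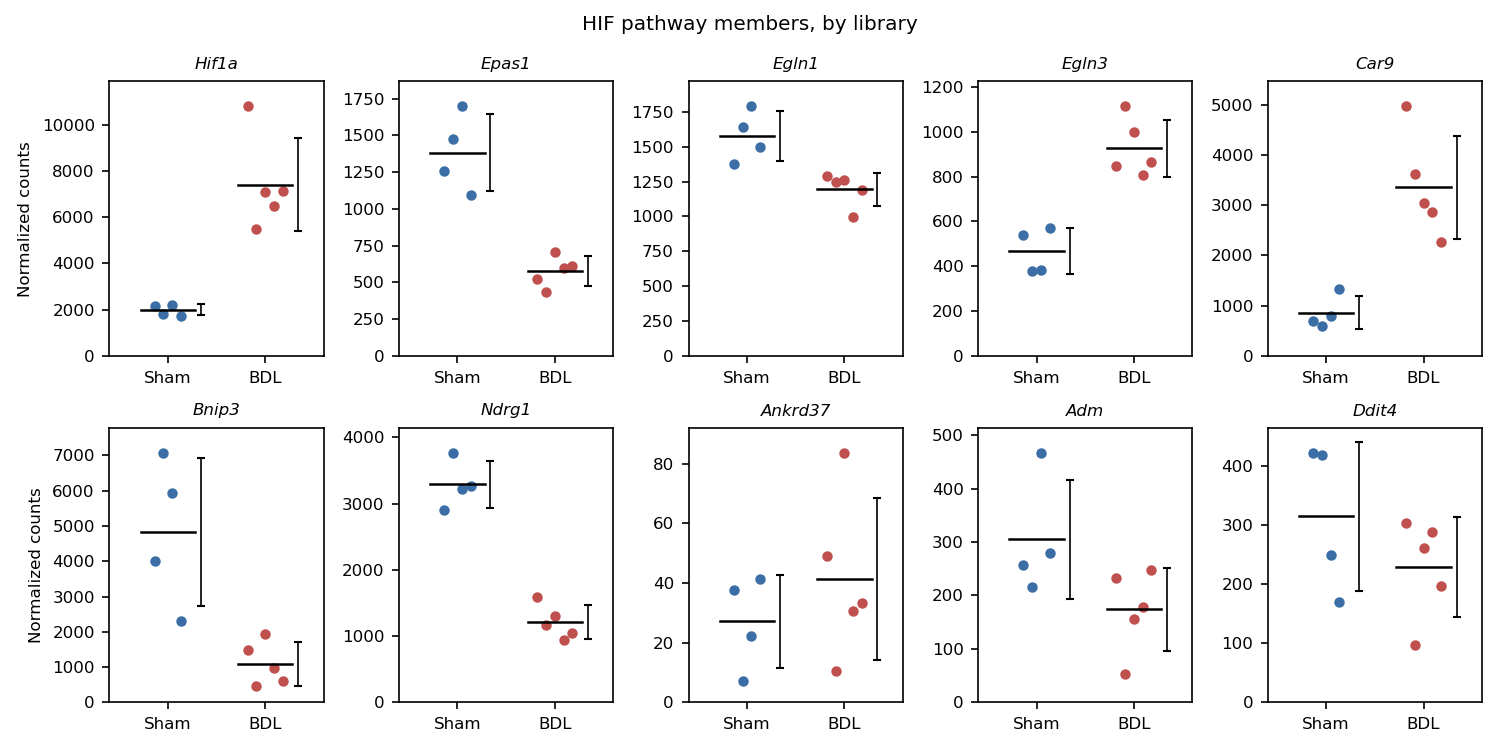
Normalized counts (y axis, from 0) of the 10 HIF pathway members in each library, with the group mean (line) and SD (bar). Hif1a, Egln3 and Car9 are higher in all 5 BDL libraries, Epas1, Egln1, Bnip3 and Ndrg1 are lower in all 5, and Ankrd37, Adm and Ddit4 overlap.

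**Figure D5:**
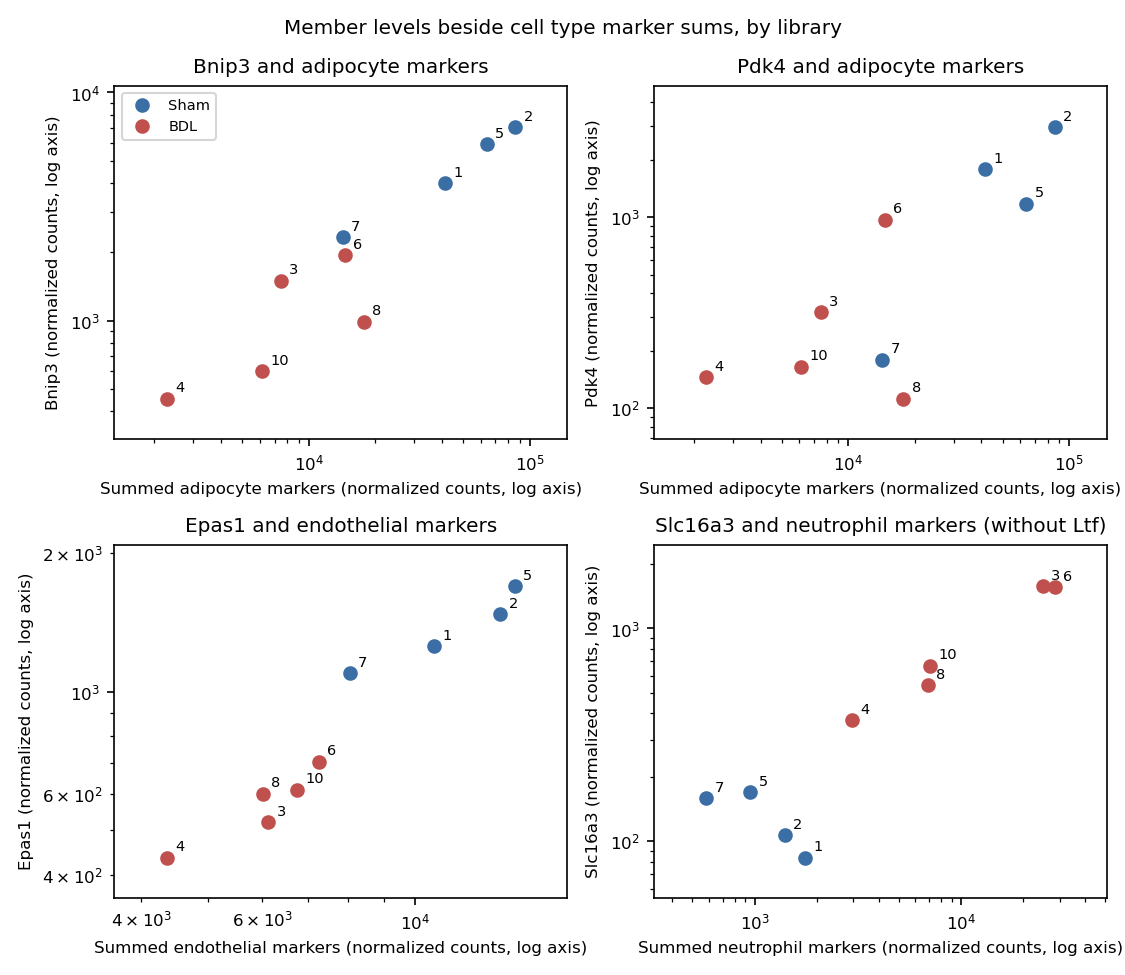
Level of 4 members (y axes) against the summed markers of a cell type (x axes), both in normalized counts on log axes, 1 point per library with its replicate number. Epas1 and endothelial markers are both lower in each BDL library and have the same order within sham. Within BDL their order is the same but for BDL 3 and BDL 8. Bnip3 and adipocyte markers run together with BDL 8 below its neighbours. BDL 3 and BDL 6 are highest in both neutrophil markers (without Ltf) and Slc16a3. Marker sums of other cell types, not drawn, held some of the same orders.

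Around the members, 31 of 33 other glycolysis and pyruvate genes passed the filter. Of these, 9 were higher and 7 lower, with a median log2 fold change of 0.21, where 21.4% of all genes tested were higher and 19.9% lower. The hexokinase-like Hkdc1 (455 ± 120.1 to 1572 ± 383, log2 fold change 1.88, adjusted p = 0.00018) and Bpgm, which makes 2,3-bisphosphoglycerate (838 ± 143 to 1672 ± 249.9, log2 fold change 1.05, adjusted p = 0.000714), were higher. So were Tigar, which lowers fructose-2,6-bisphosphate (86.2 ± 29.5 to 267 ± 109, log2 fold change 1.66, adjusted p = 0.00337), and the D-lactate dehydrogenase Ldhd (483 ± 89.4 to 1777 ± 1101, log2 fold change 1.95, adjusted p = 0.0054). The lower genes of smallest p were Pdk2 (2178 ± 353 to 308 ± 94.4, log2 fold change -2.79, adjusted p = 2.52e-05), the pyruvate and lactate transporter Slc16a7 or MCT2 (689 ± 74.9 to 170.3 ± 29.0, log2 fold change -1.97, adjusted p = 3.05e-05), the mitochondrial pyruvate carrier subunit Mpc2 (2917 ± 256 to 1722 ± 125.8, log2 fold change -0.73, adjusted p = 0.000232) and the insulin-responsive glucose transporter Slc2a4 or GLUT4 of fat and muscle (654 ± 402 to 57.7 ± 37.9, log2 fold change -3.56, adjusted p = 0.00084).

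Of 7 gluconeogenesis genes, 2 were higher and 2 lower, with a median of -0.57, where 21.4% of all genes tested were higher and 19.9% lower. Fbp2 (349.8 ± 144 to 824 ± 334, log2 fold change 1.31, adjusted p = 0.0173) and G6pc3 (805 ± 74.6 to 975 ± 48.1, log2 fold change 0.33, adjusted p = 0.021) were higher. Pck1, the cytosolic phosphoenolpyruvate carboxykinase of liver, kidney and fat (10116 ± 7554 to 625 ± 592, log2 fold change -3.96, adjusted p = 0.0104), and pyruvate carboxylase Pcx (5712 ± 3306 to 1005 ± 337, log2 fold change -2.46, adjusted p = 0.00135) were lower. Adipocyte markers moved with the fall of Pck1, Pcx and Slc2a4, and their part in it was not tested. Of 27 other HIF pathway genes, 26 passed the filter, 5 were higher and 6 lower, with a median of 0.02. These counts were near the shares over all genes tested (21.4% higher and 19.9% lower). Among the higher genes were heme oxygenase Hmox1 (336 ± 97.9 to 3579 ± 1605, log2 fold change 3.53, adjusted p = 9.24e-05), the oxidoreductase Ero1a (1090 ± 153 to 1910 ± 366, log2 fold change 0.85, adjusted p = 0.00217) and Higd1a (712 ± 176 to 1282 ± 227, log2 fold change 0.89, adjusted p = 0.00395). Stc2 (267 ± 34.6 to 58.8 ± 21.3, log2 fold change -2.16, adjusted p = 0.000238), the MYC antagonist Mxi1 (1215 ± 162 to 551 ± 88.5, log2 fold change -1.10, adjusted p = 0.000355), the Bnip3 relative Bnip3l (4138 ± 341 to 2296 ± 293, log2 fold change -0.80, adjusted p = 0.000723) and Cited2, which competes with HIF for its coactivator (783 ± 107 to 348 ± 76.8, log2 fold change -1.13, adjusted p = 0.00135), were lower.

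The calls were set against the acinar RNA that the groups did not share. With the acinar level as a term beside sex and surgery, 6 of the 13 higher glycolysis members were called (Tpi1, Gapdh, Pgk1, Pgam1, Eno1 and Pkm), and of the 4 lower only Ldhb. Of the HIF members Hif1a and Car9 were called higher and Ndrg1 lower. Every member that lost its call kept its direction. Among these the log2 fold change was 3.31 for Slc16a3 (adjusted p = 0.0714), -1.96 for Eno2 (0.167), 0.66 for Gpi1 (0.107), -1.29 for Epas1 (0.0709) and -2.19 for Bnip3 (0.203), close to the values without the term. It was smaller for Pfkl (0.25, adjusted p = 0.695), Pfkm (-0.44, 0.659), Slc2a1 (0.69, 0.331) and Slc16a1 (0.83, 0.275). The acinar level does not overlap between the groups, so this term and surgery are largely confounded, and over all genes 1058 were then called higher and 343 lower, against 4565 and 4245 without the term. With scaling that left out acinar genes and every gene above 0.5% of a library, the members' calls were those given above.

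The names of the mice have either 1 digit (2 sham and 2 BDL, all female) or 4 digits (2 sham and 3 BDL, all male but BDL 8). Each set was fitted alone without a sex term, so sex was unbalanced and not adjusted for in the 4-digit set. With 1-digit names 9 glycolysis members were called higher and 1 lower, and 3 HIF members higher and 1 lower. With 4-digit names the counts were 12 and 4 for glycolysis and 3 and 3 for HIF. Each of the 24 called members kept its direction in both sets. The log2 fold change of Gapdh was 1.96 in the former and 2.03 in the latter, that of Hif1a 1.70 and 2.06, that of Epas1 -1.25 and -1.20 and that of Bnip3 -1.75 (adjusted p = 0.18) and -2.39. The mean share of Ldhb in Ldha and Ldhb went from 12.7 to 0.874% and from 8.69 to 1.15%.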

How the data were processed

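The deposited values were estimated counts per gene that the authors made with Salmon on the Gencode vM33 transcriptome of GRCm39 and summarized with tximeta, from SMART-Seq mRNA libraries of 4 ng RNA read as 151 bp paired ends. They were whole numbers without normalization. Surgery was read from the labels, and the deposited sheet gives the sex of each mouse. The members and gene lists were chosen with earlier results of these data known.

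The filter asked for a sum of 10 counts or more across the 9 libraries. The test was the quasi-likelihood test of edgeR 4.0.16 in R 4.3.3, with TMM factors and terms for sex and surgery, and Benjamini-Hochberg adjustment covered 21299 genes. A standard error is the log2 fold change over the root of F. Levels are counts over DESeq2 1.42.0 size factors, per kilobase of the canonical transcript of Gencode vM39, whose IDs matched 55261 of 55822 genes. Isozyme shares were compared with an exact two-sided permutation test of the difference of means. All 33 members are named. Of the wider lists, up to 4 called genes of smallest p in each direction are named. 1 gene that this rule names is not reported here. Library totals were 23067967 to 29991945 counts, but much of the sham counts were acinar. The size factors were 0.434 to 1.17 in sham and 1.22 to 1.63 after BDL. A given normalized level thus rests on fewer counts in sham, and is less precise there. Each mouse gave 1 library, so p-values measure the spread between mice. Estimated counts can be split between near-identical copies. Promoter sequences are from RefSeq (table build GRCm38.p6) and were matched to GRCm39. On simulated counts edgeR recovered 98% of genes at 4-fold and 60% at 2-fold. Alternatives tried were upper-quartile or RLE scaling, DESeq2, scaling without abundant genes, other filters, no sex term, the acinar level as a term, stricter thresholds, libraries left out and mice by the number of digits in their names. Added after the data were seen were another edgeR dispersion setting (legacy = FALSE), members summed with their copies, sums over the isozymes of a step and the neutrophil sum without Ltf. Copies and overlapping genes were found as words of 31 bases shared between Gencode transcripts.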

Additional observations from a re-analysis of the deposited data

Results flagged for a closer look

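In sham, Ldhb stood at 1692 normalized counts in Sham 5 and between 981 and 1028 in the other 3 libraries, a gap of 0.933 of the group's range. After BDL, Pdk4 stood at 974 normalized counts in BDL 6 and between 112 and 319 in the other 4, a gap of 0.76 of the range. A sample this far from the others of its group is met by chance in about 1 of 20 groups. Over 84 groups tested, 4.2 would be met by chance and 2 were found. The share of Ldhb in Ldha and Ldhb was 12.8% in Sham 5 and 12.5% in Sham 7, so on that scale Sham 5 did not stand alone. BDL 6 also stood apart in hepatocyte markers. Alb was 3585 there against 3.68 to 18.0 in the other BDL libraries, and Apoa1 was 2530 against 0 to 15.9. Serpina1a and Apoh were likewise highest in BDL 6, but Ttr was the lowest of the BDL libraries there, at 1840. Whether liver RNA had a part in the Pdk4 level of BDL 6 was not tested.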

How the results depend on the processing

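Of the 33 members, DESeq2 gave 32 the same call and gave Pdk4 no adjusted p. RLE, upper-quartile and acinar-free scaling, filterByExpr, the other edgeR setting and the sum with copies gave all 33 the same call. Upper-quartile scaling moved the median of all genes from -0.03 to -0.18, and no called member reversed under any alternative run. Without a filter on low counts Egln1 lost its call (adjusted p = 0.0546) and Pdk4 gained one (0.0378), and without the sex term Pdk4 gained one (0.0463). With the acinar level as a term, called members were 6 higher and 1 lower for glycolysis and 1 lower for the HIF pathway, and 75.5% of all calls were higher, against 51.8% without it. Within mice with 1-digit names (2 against 2 females) 1 glycolysis and 1 HIF member were lower, and 10 of the 33 members lost their calls. Within mice with 4-digit names (2 against 3) Pfkl, Pfkm and Egln1 lost theirs and Pdk4 gained one. A threshold of 0.01, or a fold above 2, left 2 glycolysis members lower. The difference in the share of Pfkl (9.05 percentage points) was 9.86 with the longest transcript (exact permutation p = 0.0317) and 9.96 with the union of exons (0.0317). With libraries left out, the Pdk4 share differed by -41.1 to -21.4 points, the former without Sham 7 (exact permutation p = 0.0179). Leaving out single libraries changed the calls of Pfkm, Pfkfb3, Egln1 and Pdk4 alone among the members. No paired analysis was made, because the labels do not record which sham and BDL mice belong together. The paper states that littermate controls were used where possible. Depth limits the precision of the lowest members, Ankrd37 with 7.25 to 83.6 normalized counts and Eno2 with 18.0 to 156. Their lowest raw counts were in sham, at 4 for Ankrd37 in Sham 2 and 21 for Eno2 in Sham 7.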
